A study of Mus musculus with 13 samples.

Results

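The thioredoxin system was followed as 6 genes, taken by symbol from the table of counts: the thioredoxin reductases Txnrd1, Txnrd2 and Txnrd3, the thioredoxins Txn1 and Txn2, and the thioredoxin-interacting protein gene Txnip. All 6 were found among the 56953 genes of the table, and 6 of 6 were among the 18055 genes with enough counts to be tested. The rule names the genes and sets no threshold on their values, but they were chosen with earlier results of these data known. The RNA came from whole aorta of ApoE-/- mice, which lack apolipoprotein E and develop atherosclerosis. Every group ate Western diet for 16 weeks, starting at 6 weeks of age. One group had the diet alone (WD, 5 libraries), and the others had it with auranofin at 3 mg/kg/day (3 libraries), with atorvastatin at 10 mg/kg/day (3 libraries), or with both drugs at those doses (combination, 2 libraries). All groups therefore shared the Apoe deletion and the diet, and no chow-fed or wild-type aorta was analysed here. The series was built to ask how auranofin bears on the progression of atherosclerosis.

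Thioredoxins are small proteins that reduce disulfide bonds in other proteins through a pair of cysteines, and thioredoxin reductases recharge them with electrons from NADPH. The reductases are selenoproteins: a selenocysteine next to their C-terminal end, encoded by an in-frame TGA codon, carries the electrons to thioredoxin. Auranofin, a gold compound used against rheumatoid arthritis, inactivates the reductases by binding of gold to that residue, so its direct action is on the protein and not on the transcript. TXNIP binds reduced thioredoxin and is also an arrestin-like adaptor that limits glucose uptake. Atorvastatin inhibits HMG-CoA reductase and lowers plasma cholesterol.

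The last 12 codons of the 3 reductases, read from the GENCODE M21 transcripts (mouse build GRCm38) and written 5′ to 3′, show the residue that auranofin acts on, with the TGA that is read as selenocysteine in capitals.
Txnrd1: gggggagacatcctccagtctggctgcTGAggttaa
Txnrd2: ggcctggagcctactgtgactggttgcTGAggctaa
Txnrd3: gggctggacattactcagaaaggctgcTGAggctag
In all 3 the TGA is followed by 1 glycine codon and the stop codon, and it is preceded by a cysteine codon. The 12 codons around the redox-active cysteine pair of the thioredoxins, with the 2 cysteine codons in capitals, show the site that the reductases recharge.
Txn1: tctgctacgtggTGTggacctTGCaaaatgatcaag
Txn2: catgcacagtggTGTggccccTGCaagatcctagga
The capitals mark codons 32 and 35 of Txn1, the cytosolic protein, and codons 90 and 93 of Txn2, the mitochondrial protein, which has a longer N-terminal end.

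The libraries held 19703683 to 26079566 counts. No label assigns a library to a mouse or a batch, so p-values measure only the spread between these libraries. Contractile smooth muscle markers summed to 6005 CPM (the count relative to the library's total, scaled by edgeR's TMM factors) or more in every library, so the tissue's defining markers were present. The libraries differed in other ways. By the mean log2 CPM of marker lists, auranofin 2 had the lowest smooth muscle value (6.95, with 8.33 in combination 2 next). It also had the highest endothelial (7.62), T cell (2.18) and B cell (4.82) values, and the next B cell value was 2.32 in atorvastatin 3. The part of this make-up in the member values of auranofin 2 was not tested. Mitochondrial genes took 9.36% to 38.8% of the counts. A short-transcript index, the median log2 deviation of 2179 genes with transcripts under 1000 bases minus that of 5148 genes with transcripts over 4000 bases, was 1.75 in WD 2, 0.93 in WD 5 and 0.57 in auranofin 2, and ran from -0.96 to 0.05 in the other libraries. None of the 6 genes is in the index. In bulk tissue, fewer cells of a type and less RNA per cell cannot be told apart, and this holds for every value below.

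None of the 6 genes changed past an adjusted p of 0.05 in any of 6 comparisons with edgeR's quasi-likelihood test, and neither did any other gene. The share of all tested genes past that threshold was 0% for each of auranofin against WD, atorvastatin against WD, the combination against WD, the auranofin term and the atorvastatin term of an additive model, and the interaction of the drugs. At an unadjusted p under 0.05 these shares were 6.5%, 14.7%, 1.47%, 2.69%, 7.08% and 3.1% of 18055 genes, in that order (1173, 2648, 265, 486, 1278 and 559 genes). DESeq2 called 2 genes for auranofin against WD, 4 for the combination against WD and 11 for the interaction, and 0 in the other 3, with no member among them. Limma called 0 genes in each of the 6. In 0 of 6 members did a treated group fail to overlap with WD, against 2.77% of all genes for auranofin, 5.7% for atorvastatin and 3.29% for the combination.

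**Figure D1:**
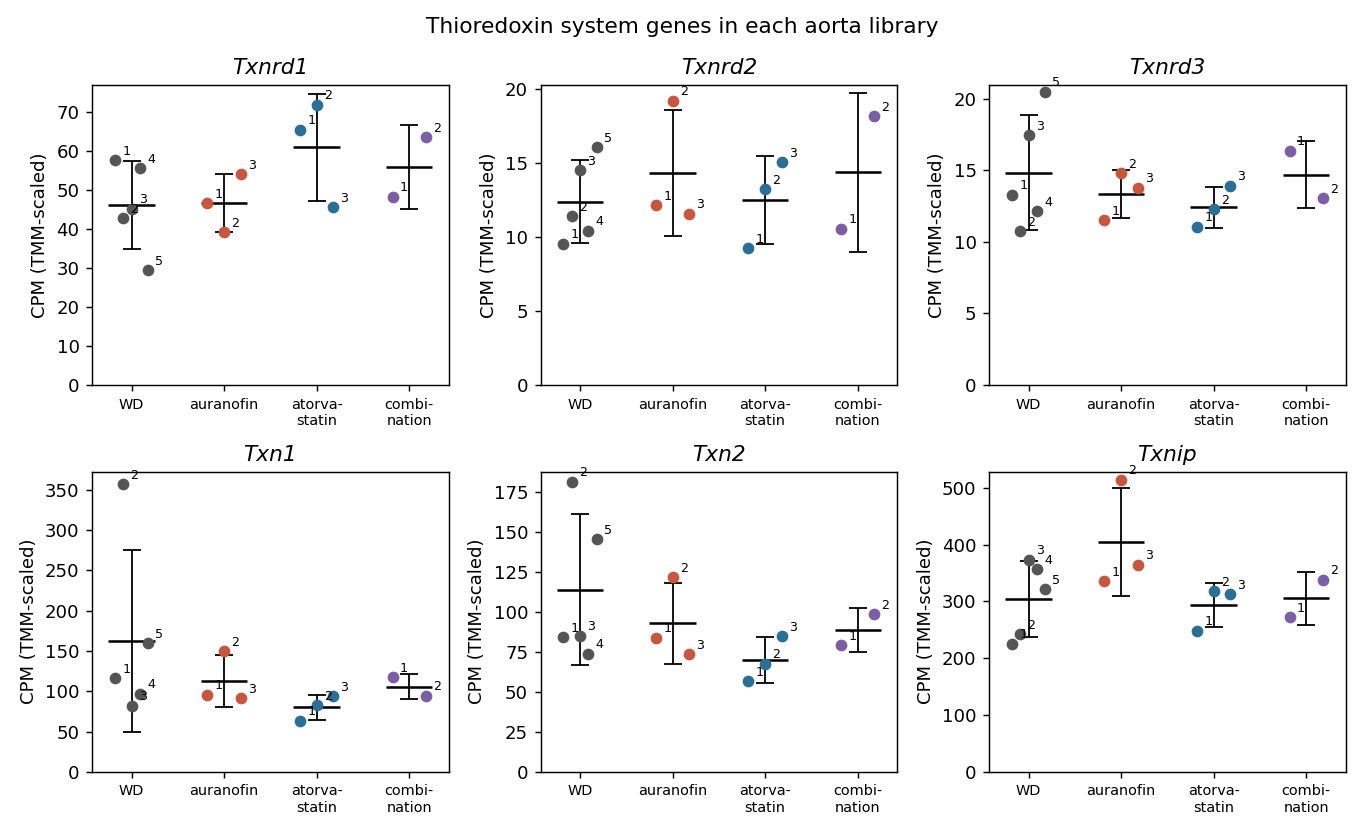
CPM (linear axis from 0) of each thioredoxin system gene in the 13 libraries; points are libraries labelled by replicate number, horizontal lines group means and bars 1 SD (WD n = 5, auranofin n = 3, atorvastatin n = 3, combination n = 2). Every treated group overlaps WD for each gene, and WD 2 stands far above the other libraries for Txn1 at 357 CPM.

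Per kilobase of merged exons, the binding protein and the cytosolic thioredoxin were the most abundant of the 6 transcripts and the reductases the least. Over the 13 libraries the median was 103 CPM per kb for Txnip, 91.2 for Txn1, 20 for Txn2, 6.83 for Txnrd1, 4.69 for Txnrd3 and 2.77 for Txnrd2. Txnip exceeded Txn1 in 9 of 13 libraries, so the order of these neighbours was within their spread. Txn1 exceeded Txn2, and Txn2 exceeded Txnrd1, in 13 of 13. Txnrd1 exceeded Txnrd3 in 12 of 13. The order of the last pair depended on the length used: Txnrd3 was above Txnrd2 in 13 of 13 libraries per kb of merged exons and in 7 of 13 per kb of the longest transcript. Since mean levels differ this much, each gene is compared below only with itself.

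Txnrd1 (ENSMUSG00000020250, chr10:82833951-82897712 on the plus strand in GRCm38, 15 merged exons) encodes the cytosolic reductase and is a target of NRF2, the regulator of the antioxidant response. It had 57.8, 42.9, 45.3, 55.7 and 29.6 CPM in WD 1 to 5 and 46.6, 39.3 and 54.2 CPM in auranofin 1 to 3. With atorvastatin it had 65.6, 72.0 and 45.7 CPM, and with the combination 48.4 and 63.7 CPM. The 3 auranofin libraries lay inside the WD range, while 2 of 3 atorvastatin libraries and 1 of 2 combination libraries lay above it. The WD mean was 46.2 ± 11.3 CPM (SD, n = 5), and that of the auranofin libraries was 46.7 ± 7.46 CPM (n = 3). The log2 fold change for auranofin was 0.01 (SE 0.24, 95% interval -0.50 to 0.52, adjusted p = 0.987, edgeR), an interval that leaves room for a change of either sign, and its sign turned under several alternatives (-0.11 with limma). For atorvastatin it was 0.40 (SE 0.23, interval -0.10 to 0.91, adjusted p = 0.374), and for the combination 0.28 (SE 0.27, adjusted p = 0.997). The combination value was 0.07 without combination 2, 0.15 without WD 5 and 0.45 without combination 1. In the additive model the atorvastatin term was 0.35 (SE 0.18, unadjusted p = 0.0700, adjusted p = 0.546), and it was 0.15 with the short-transcript index as covariate.

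Txnrd2 (ENSMUSG00000075704, chr16:18426384-18479073, plus strand, GRCm38) encodes the mitochondrial reductase. Its CPM values were 9.56, 11.4, 14.5, 10.4 and 16.1 in WD 1 to 5, and 12.2, 19.2 and 11.6 with auranofin. They were 9.26, 13.3 and 15.1 with atorvastatin and 10.6 and 18.2 with the combination. Auranofin 2 and combination 2 were the only libraries above WD 5, and atorvastatin 1 was the only one below WD 1. Before TMM scaling auranofin 2 had 292 counts in a total of 24156822, against 317 of 24648058 in WD 5. The log2 fold change was 0.21 for auranofin (SE 0.27, adjusted p = 0.808), 0.01 for atorvastatin (SE 0.27, adjusted p = 0.981) and 0.21 for the combination (SE 0.30, adjusted p = 0.997). Without auranofin 2 the first of these was -0.06, and without combination 2 the last was -0.22.

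Txnrd3 (ENSMUSG00000000811, chr6:89643988-89675529, plus strand, GRCm38) encodes a reductase with an added glutaredoxin domain that is best known from testis. It was present in the aorta at 13.3, 10.7, 17.5, 12.2 and 20.5 CPM in WD 1 to 5, from 179 to 427 counts. With auranofin it had 11.5, 14.8 and 13.8 CPM, with atorvastatin 11.1, 12.3 and 13.9, and with the combination 16.4 and 13.04. All 8 treated libraries lay within the WD range. Its log2 fold changes were -0.15 (SE 0.22) for auranofin, -0.25 (SE 0.22) for atorvastatin and -0.01 (SE 0.25) for the combination, with adjusted p of 0.837, 0.524 and 0.999. Without WD 5, the highest library, the first of these was -0.0067 and the second -0.11. Txnrd3 varied the least of the 6 genes, with an SD of 0.27 on the log2 CPM scale over the 13 libraries, and 17.7% of tested genes had a smaller SD.

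Txn1 (ENSMUSG00000028367, chr4:57943373-57956411, minus strand, GRCm38) encodes cytosolic thioredoxin and varied the most, with an SD of 0.62 on the log2 CPM scale. In WD 1 to 5 it had 116, 357, 81.9, 96.9 and 159.9 CPM. With auranofin it had 95.9, 149.6 and 91.2 CPM, with atorvastatin 63.6, 82.7 and 93.7, and with the combination 117 and 94.5. WD 2 held more than any other library, and 2 of 3 atorvastatin libraries lay within the WD range, with the third below all 5 WD libraries. The mean was 80.0 ± 15.2 CPM (SD, n = 3) with atorvastatin, against 162 ± 113 CPM (n = 5) for WD. The log2 fold change for atorvastatin was -1.02 (SE 0.43, interval -1.96 to -0.08), with an unadjusted p of 0.0353 and an adjusted p of 0.340 in edgeR, and 9.62% of tested genes had a smaller p. Auranofin gave -0.53 (SE 0.42, adjusted p = 0.702) and the combination -0.62 (SE 0.49, adjusted p = 0.997). The 3 comparisons share the WD libraries. Without WD 2 the values were -0.51 for atorvastatin (SE 0.26, unadjusted p = 0.0796, adjusted p = 0.577), -0.02 for auranofin and -0.10 for the combination. With limma and weights for library quality the atorvastatin value was -0.49, and with the mitochondrial share as covariate the auranofin value was -0.85 (SE 0.35, unadjusted p = 0.0334, adjusted p = 0.317). Over all alternatives the adjusted p of Txn1 for atorvastatin ran from 0.187 to 1.00.

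Txn2 (ENSMUSG00000005354, chr15:77915047-77929006, minus strand, GRCm38) encodes mitochondrial thioredoxin. It had 84.0, 181, 85.0, 73.7 and 145 CPM in WD 1 to 5 and 83.7, 122 and 73.4 CPM with auranofin. Its level was 56.5, 67.7 and 84.8 CPM with atorvastatin and 79.0 and 98.3 CPM with the combination. WD 2, WD 5 and auranofin 2 stood above the rest, as for Txn1, and atorvastatin 1, atorvastatin 2 and auranofin 3 below all WD libraries. The log2 fold change was -0.71 for atorvastatin (SE 0.32, unadjusted p = 0.0436, adjusted p = 0.340), -0.29 for auranofin (SE 0.31, adjusted p = 0.771) and -0.36 for the combination (SE 0.36, adjusted p = 0.997). Without WD 2 these were -0.48, -0.06 and -0.13, and without auranofin 2 the auranofin value was -0.54. With the mitochondrial share as covariate the auranofin value was -0.63 (SE 0.20, unadjusted p = 0.0092, adjusted p = 0.315). Txn1 and Txn2 were thus the 2 members of 6 with an unadjusted p under 0.05 for atorvastatin, where 14.7% of all genes had one.

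The 2 thioredoxin transcripts followed the short-transcript index across the libraries. Pearson's r with the index was 0.98 for Txn1 (Spearman's rho 0.93) and 0.95 for Txn2 (rho 0.68) over 13 libraries. Their adjusted permutation p was 0.00032 each for r, and 0.00048 and 0.0485 for rho, over 48 relations with library measures. Without WD 2 and WD 5, the libraries farthest from the median index, r was 0.96 and 0.84. On values minus the group mean, r was 0.97 and 0.93. The index was -0.96, -0.67 and -0.14 in atorvastatin 1 to 3 and -0.32 to 1.75 in WD. With it as a covariate, an alternative chosen after the data were seen, the log2 fold change for atorvastatin was 0.09 for Txn1 (SE 0.15) and -0.0079 for Txn2 (SE 0.16). The longest transcript has 1051 bases for Txn1, just above the limit of 1000 bases for the short genes of the index, and 2049 for Txn2. The genes with the most similar profile to Txn1 were Med11, Rps24-ps3 and Rpl23 (r of 0.99 each over 13 libraries), and those most like Txn2 were Chchd2, Tomm5 and Mrpl42 (r of 0.99 each). The longest transcripts of these genes had 402 to 1059 bases for the first 3 and 666 to 915 for the others. Rps24-ps3 is a pseudogene, and its reads may be shared with its parent gene.

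Txnip (ENSMUSG00000038393, chr3:96557957-96561883, plus strand, GRCm38) is the endogenous binding partner and inhibitor of thioredoxin, induced by glucose through the factors MondoA and ChREBP. It had 226, 243, 374, 357 and 321 CPM in WD 1 to 5. With auranofin it had 335.5, 514 and 365 CPM, with atorvastatin 248.6, 318 and 313, and with the combination 273 and 338. Auranofin 2 was the highest library of all and the only one above the WD range, and no library lay below it. That place rests on the TMM factor of auranofin 2, 0.63, the lowest of the 13 libraries. Before this scaling it had 7805 Txnip counts in a total of 24156822, against 9769 of 22219720 in WD 4. The mean was 405 ± 95.9 CPM (SD, n = 3) with auranofin, against 304 ± 66.9 CPM (n = 5) for WD. The log2 fold change for auranofin was 0.41 (SE 0.24, interval -0.10 to 0.93, unadjusted p = 0.107, adjusted p = 0.671, edgeR). It was -0.05 (SE 0.24, adjusted p = 0.916) for atorvastatin and 0.01 (SE 0.27, adjusted p = 0.999) for the combination. The auranofin term over all groups was 0.28 (SE 0.18, adjusted p = 0.998), the largest of the 6 members in that term. Without auranofin 2 the value for auranofin against WD was 0.20, and with total counts and no further scaling it was 0.24. Txnip shares 606 exon bases with the antisense gene Gm15441, which had 1 to 22 counts per library against 4041 to 9788 for Txnip. In libraries that do not keep the strand, reads from the shared bases cannot be told apart.

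**Figure D2:**
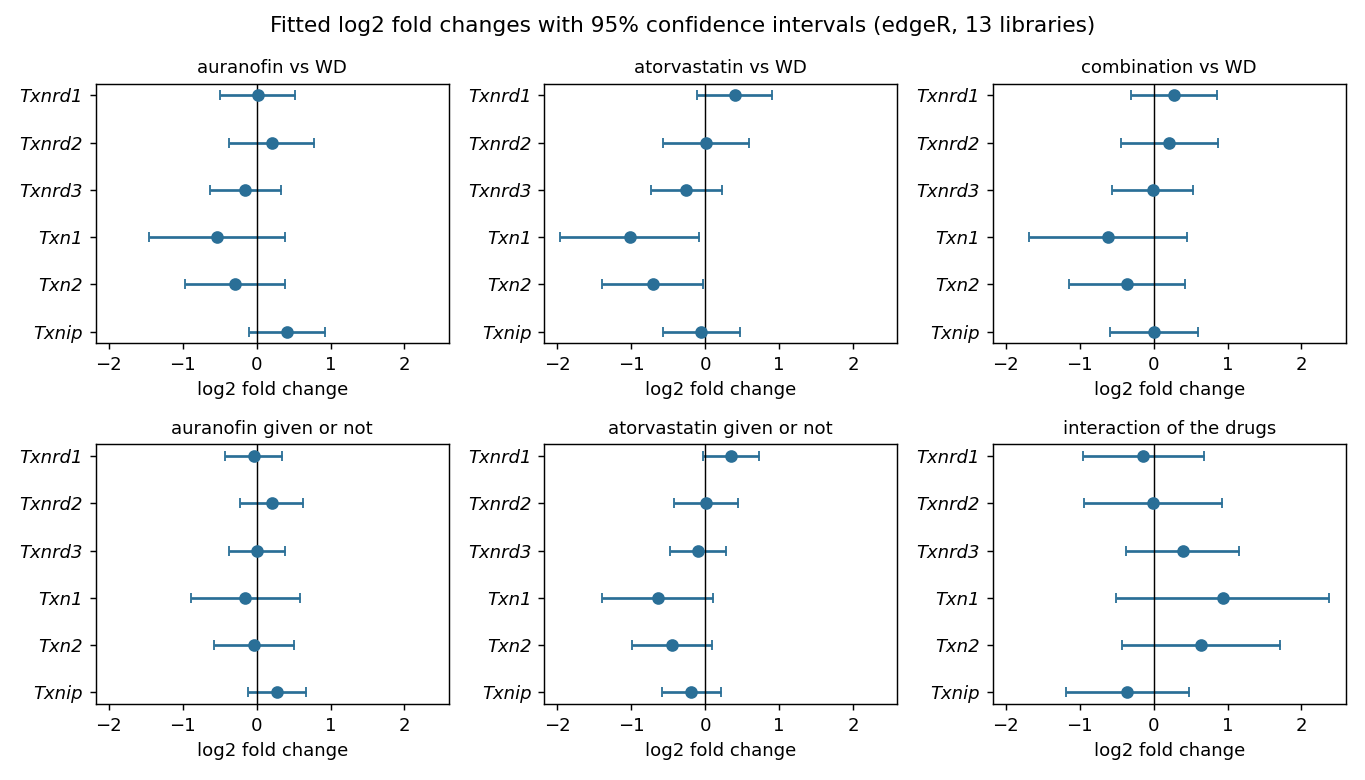
Log2 fold changes from edgeR for the 6 members in 6 comparisons (points), with 95% confidence intervals (bars), fitted on all 13 libraries. The intervals of Txn1 and Txn2 for atorvastatin against WD end at -0.08 and -0.02, and the other 34 intervals include 0.

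The interaction term, the effect of auranofin on top of atorvastatin minus its effect on the diet alone, was positive for 3 members and negative for 3. Txn1 had the largest value, 0.93 (SE 0.67, interval -0.51 to 2.38, adjusted p = 0.791), followed by Txn2 with 0.64 (SE 0.49). Txnip had -0.35 (SE 0.38, adjusted p = 0.806). Without WD 2 the values of Txn1 and Txn2 were 0.42 and 0.41, and without auranofin 2 that of Txnip was -0.14. With the short-transcript index as covariate Txn1 had 0.01 and Txn2 0.10. With the mitochondrial share as covariate they had 1.35 (unadjusted p = 0.0294) and 1.03 (unadjusted p = 0.0062), with an adjusted p of 0.328 each. With 2 combination libraries the intervals span more than 1.5 on the log2 scale for each member, so they leave room for sizeable departures from additivity in either direction.

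The members moved apart from each other rather than as 1 block. Over the 13 libraries, Txn1 and Txn2 were positively correlated (r 0.91, rho 0.66, adjusted permutation p = 0.00060 for r and 0.117 for rho over 15 pairs). Without WD 2 and WD 5 that r was 0.80 (adjusted p = 0.0949). Txnrd2 and Txnip, on different chromosomes, had r 0.70 (rho 0.58, adjusted p = 0.0325 and 0.122), which was 0.57 without auranofin 2 and combination 2. Txnrd1 ran against Txn2, with r -0.73 (rho -0.76, adjusted p = 0.0325 and 0.0532), which was -0.62 without WD 5 and atorvastatin 2. These were the 3 of 15 pairs past the threshold for r, and 0 of 15 passed it for rho or once the 2 farthest libraries were left out. On values minus the group mean, 2 pairs passed: Txn1 with Txn2 (r 0.88) and Txnrd2 with Txnip (r 0.75).

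**Figure D3:**
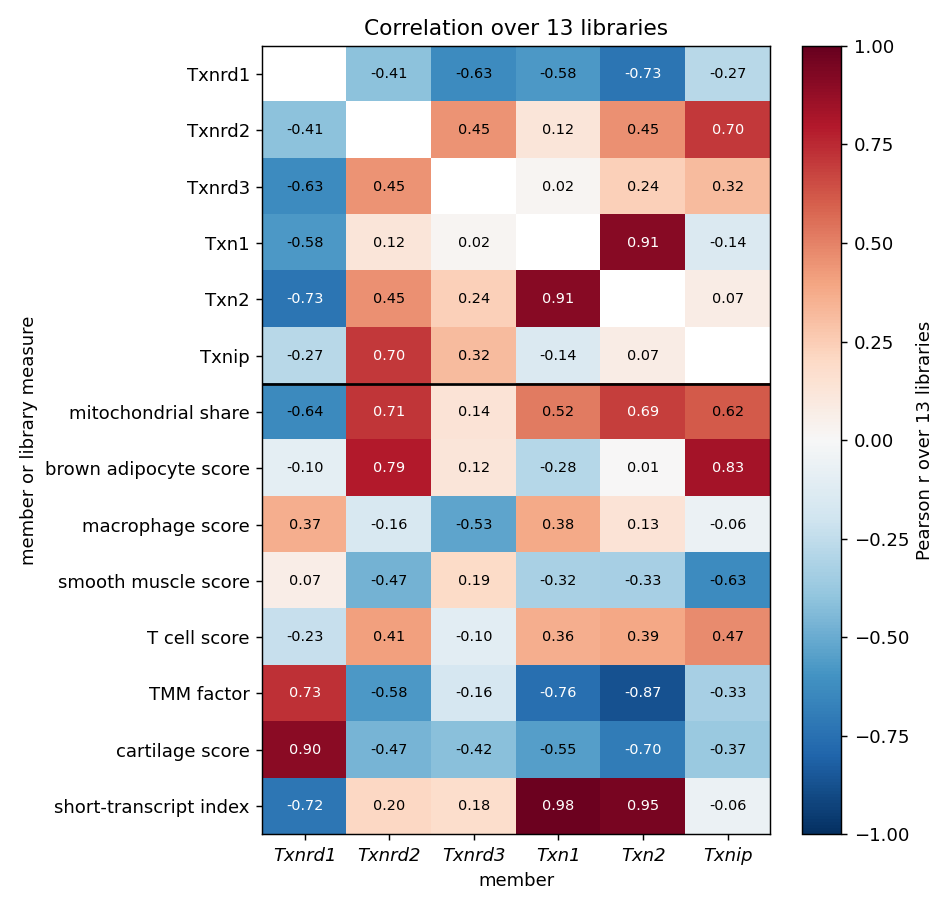
Pearson r over 13 libraries between log2 CPM of the 6 members (upper block) and between the members and 8 measures of the library (lower block); red is positive and blue negative. Txn1 and Txn2 are closest to the short-transcript index (0.98 and 0.95), Txnrd1 to the cartilage score (0.90), and Txnrd2 and Txnip to the brown adipocyte score (0.79 and 0.83).

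Txnrd1 was highest in the libraries rich in cartilage transcripts. Its r with the cartilage score, the mean log2 CPM of Col2a1, Acan, Sox9, Comp and Col10a1, was 0.90 (rho 0.98, adjusted p = 0.00032 for r over 48 relations). This relation was 0.93 without WD 5 and atorvastatin 2 and 0.89 on values minus the group mean, and it was added after the data were seen. The summed level of these 5 markers ran from 43.8 to 598 CPM in WD, 36.3 to 219 with auranofin, 61.2 to 1065 with atorvastatin and 156 to 373 with the combination. Col2a1 was at 0 counts in at least 1 library and at 17925 in another. Txnrd1 was also negatively correlated with the short-transcript index (r -0.72, rho -0.76, adjusted p = 0.0255 and 0.0245). The part of cartilage and of transcript length in the atorvastatin value of Txnrd1 was not tested beyond the covariate value given above. The genes most like Txnrd1 were Npc1, the lysosomal cholesterol transporter (r 0.98), Plekhm1, an adaptor of lysosomes (r 0.97), and the collagen gene Col5a2 (r 0.96), with longest transcripts of 5224 to 6625 bases.

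Txnrd2 and Txnip were highest in the libraries rich in brown adipocyte transcripts, which mark the fat around the aorta. Their r with the score of 8 markers (Ucp1, Cidea and others) was 0.79 for Txnrd2 (rho 0.81) and 0.83 for Txnip (rho 0.76), with adjusted permutation p of 0.0121 and 0.0086 for r and 0.0294 each for rho over 36 relations. Without WD 1 and auranofin 2, r was 0.66 and 0.65 (unadjusted permutation p = 0.0274 and 0.0325). Neither passed the threshold (adjusted p = 0.136 each), so the call was not kept without those 2 libraries. On values minus the group mean, r was 0.85 and 0.84. The 8 markers summed to 135 to 956 CPM in WD, 520 to 2922 with auranofin, 407 to 738 with atorvastatin and 291 to 1710 with the combination, and none was at 0 in any library. With the score as a covariate, the log2 fold change of Txnip for auranofin was 0.02 (SE 0.23) in place of 0.41, and that of Txnrd2 was -0.33 (SE 0.23) in place of 0.21. The genes most like Txnrd2 were the mitochondrial enzyme genes Uqcrc1 (r 0.96), Pccb (r 0.95) and Mecr (r 0.95). Those most like Txnip were Cd1d1, Acad8 and Aspa (r of 0.91 each), and those most like Txnrd3 were Inafm1, Triobp and Atn1 (r of 0.90, 0.89 and 0.87).

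**Figure D4:**
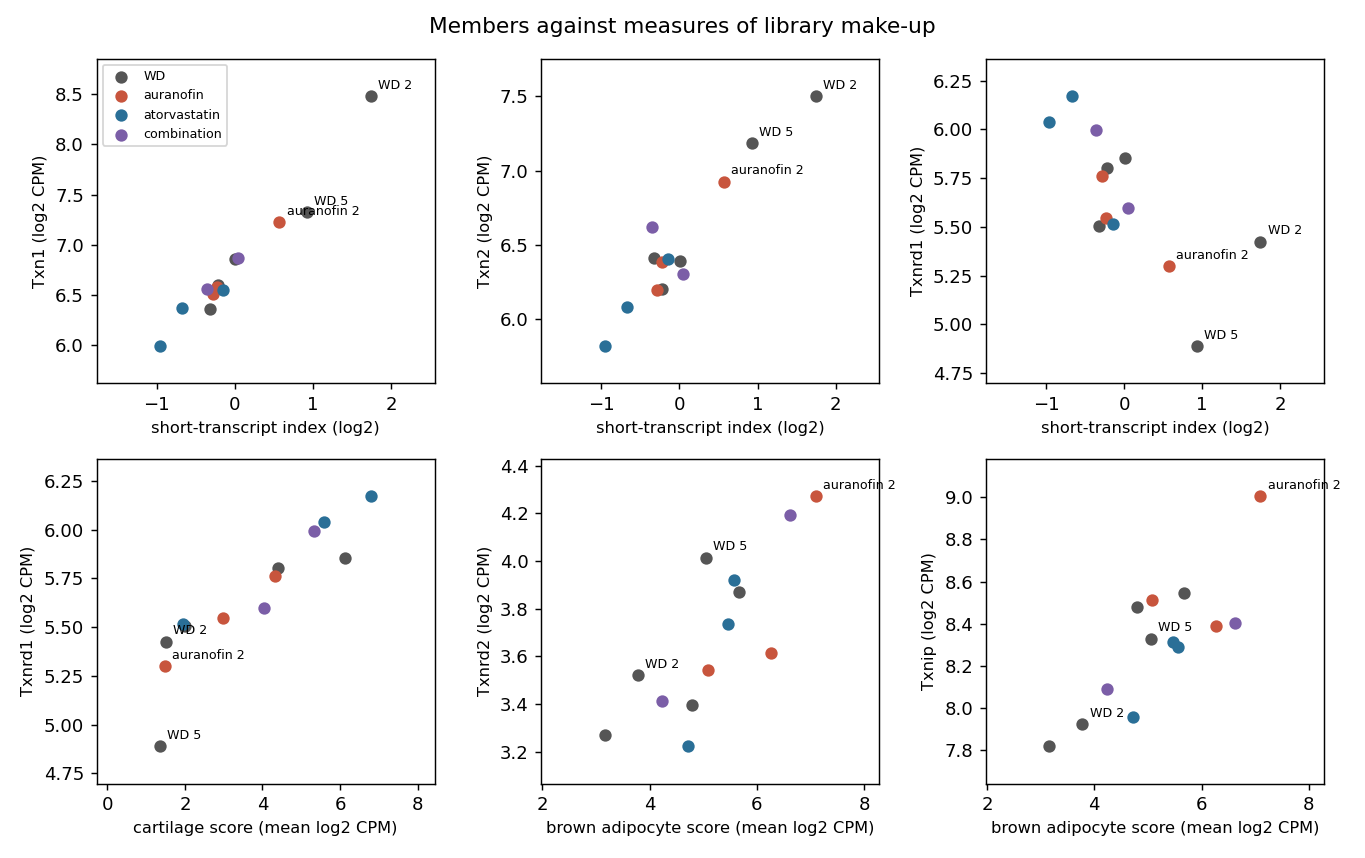
Log2 CPM of 5 members, Txnrd1 in 2 panels, in the 13 libraries, coloured by group: Txn1, Txn2 and Txnrd1 against the short-transcript index, Txnrd1 against the cartilage score, and Txnrd2 and Txnip against the brown adipocyte score. On these TMM-scaled values WD 2, with an index of 1.75, holds the highest Txn1 and Txn2, and auranofin 2 holds the highest Txnrd2 and Txnip. Their TMM factors were 0.64 and 0.63, against a median of 1.08 over the libraries.

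The macrophage score, of interest in plaque, had r between -0.53 (Txnrd3) and 0.38 (Txn1) with the members, with no adjusted p below 0.188 for r. The TMM factor, which edgeR uses to scale a library, was correlated with Txn2 (r -0.87, adjusted p = 0.0086), Txn1 (r -0.76, adjusted p = 0.0273) and Txnrd1 (r 0.73, adjusted p = 0.0278), and on values minus the group mean r was -0.95, -0.80 and 0.69. Without WD 2 and auranofin 2, r was -0.80 for Txn2, -0.47 for Txn1 and 0.81 for Txnrd1 over 11 libraries, with adjusted p of 0.0748, 0.317 and 0.0748. The CPM of each member is itself divided by this factor, so these r hold a built-in negative part. Their p-values therefore do not measure an association of the genes alone. The same factor divides both sides of each pair of members, and of each relation with a marker score. Its part in those r was not tested. The share of mitochondrial counts was correlated with Txnrd2, the mitochondrial reductase (r 0.71, rho 0.71, adjusted p = 0.0278 and 0.0357), but r was 0.49 without WD 1 and auranofin 2. Txn2, the mitochondrial thioredoxin, had r 0.69 with that share (adjusted p = 0.0517), and 0.82 without those 2 libraries (adjusted p = 0.0259). The relation was not particular to the mitochondrial members. Txnrd1 had r -0.64 with the share (rho -0.77, adjusted p = 0.0901 and 0.0294). Txn1 had r 0.52, Txnrd3 0.14 and Txnip 0.62, and without those 2 libraries r was 0.65 for Txn1 and -0.0063 for Txnip.

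Ratios of 2 members within a library do not depend on the library's scaling. The count ratio of Txnip to Txn1, inhibitor to target, was 1.95, 0.68, 4.56, 3.68 and 2.01 in WD 1 to 5. It was 3.50, 3.44 and 4.00 with auranofin, 3.91, 3.85 and 3.34 with atorvastatin, and 2.33 and 3.58 with the combination. The WD range enclosed all 8 treated libraries. The mean log2 ratio was 0.77 higher with auranofin and 0.79 higher with atorvastatin than in WD (exact permutation p = 0.357 and 0.339, two-sided). The mitochondrial pair Txnrd2 to Txn2 differed by 0.65 on the log2 scale for atorvastatin, with an exact p of 0.0893, the smallest of 9 such tests (adjusted p = 0.536), where the design allows 0.0179 at best. The cytosolic pair Txnrd1 to Txn1 differed by 1.23 for atorvastatin (exact p = 0.143). These ratios were added after the data were seen, and their denominators are the 2 genes that followed the short-transcript index.

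The 250 bases before the start of Txnip and of Txnrd1 (RefSeq, GRCm38.p6, plus strand) are shown because both genes have well known sugar- or stress-responsive elements there and their regulators were measured. Capitals mark CACGAG, a motif that occurs in pairs in the carbohydrate response element, and the antioxidant response core TGACNNNGC, found here on the other strand; both strands were searched.
Txnip, chr3:96557707-96557956: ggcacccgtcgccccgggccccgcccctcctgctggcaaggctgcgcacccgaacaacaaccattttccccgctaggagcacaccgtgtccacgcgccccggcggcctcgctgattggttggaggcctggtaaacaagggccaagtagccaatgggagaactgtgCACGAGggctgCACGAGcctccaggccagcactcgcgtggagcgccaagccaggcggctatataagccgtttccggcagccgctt
Txnrd1, chr10:82858956-82859205: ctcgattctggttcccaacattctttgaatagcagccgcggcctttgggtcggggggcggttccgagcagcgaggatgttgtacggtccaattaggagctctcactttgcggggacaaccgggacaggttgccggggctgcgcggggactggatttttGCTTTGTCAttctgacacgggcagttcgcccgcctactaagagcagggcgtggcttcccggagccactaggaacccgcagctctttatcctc
Txnip has 2 matches to CACGAG, which 5.37% of 32851 promoter windows hold at least once, and Txnrd1 has 1 match to the antioxidant core, which 10.2% hold. RefSeq gives 2 further starts for Txnrd1, whose windows have no match to either motif.

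Of the factors that act through these elements, Mlxipl (ChREBP) was correlated with Txnip (r 0.71, rho 0.66, adjusted p = 0.0183 and 0.0522 over 3 relations), with r 0.49 without WD 1 and WD 2. Mlxipl ranged from 4.38 to 40.7 CPM in WD and from 20.1 to 45.1 with auranofin, with a log2 fold change of 1.05 for auranofin (unadjusted p = 0.102). Arrdc4, the alpha-arrestin closest to Txnip and also a MondoA target, had r 0.39 with Txnip (adjusted p = 0.237). Nfe2l2, which encodes NRF2, had r 0.35 with Txnrd1 (adjusted p = 0.237), and 108 to 121 CPM as group means. These 3 relations were added after the data were seen, and no relation was computed for Mlxip, which encodes MondoA. Mlxip had log2 fold changes of 0.10 for auranofin and 0.63 for atorvastatin (adjusted p = 0.910 and 0.340, edgeR). Mlxipl was lowest in WD 1 and WD 2 and highest in combination 2 and auranofin 2, and so was the brown adipocyte score. The part of brown adipocytes in the relation of Mlxipl with Txnip was not tested.

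Around the 6 members, 76 of 77 other genes of 11 lists were tested (the transhydrogenase gene Nnt was not), and 0 of 76 passed an adjusted p of 0.05 in any comparison. The lists are described by counts of fitted signs and by medians, beside the median over all genes, which was -0.04 for auranofin against WD, -0.01 for atorvastatin and -0.01 for the combination. The comparisons share the WD libraries.

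Thioredoxin-dependent peroxidases are the main users of thioredoxin against hydrogen peroxide. Their list held Prdx1 to Prdx5 and also Srxn1, which is not a peroxidase. Values were negative in 5 of 6 genes of the list for auranofin against WD (median -0.38). For atorvastatin 6 of 6 were negative (median -0.90), and 3 of 6 had an unadjusted p under 0.05, against 14.7% of all genes. For the combination 4 of 6 were negative (median -0.47). Prdx4, the peroxiredoxin of the endoplasmic reticulum, had -0.71 for auranofin (adjusted p = 0.671) and -1.02 for atorvastatin (adjusted p = 0.340), from 88.0 ± 51.8 CPM (SD, n = 5) in WD to 43.4 ± 9.10 (n = 3) with atorvastatin. Srxn1, which repairs overoxidised peroxiredoxins and is an NRF2 target, had -0.33 for auranofin. Prdx3, the mitochondrial peroxiredoxin, was the 1 with a positive value for auranofin, 0.29. With the short-transcript index as covariate the medians of the list were -0.06 for auranofin and -0.03 for atorvastatin, beside -0.03 and -0.02 over all genes, and 0.09 for the combination.

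Methionine sulfoxide reductases, which take electrons from thioredoxin to repair oxidised methionine, had negative values in 4 of 4 for auranofin (median -0.31), 3 of 4 for atorvastatin (median -0.62) and 4 of 4 for the combination (median -0.24). Msrb1, itself a selenoprotein, had -0.91 and -1.14 (unadjusted p = 0.0399 and 0.0145, adjusted p = 0.671 and 0.340), with 159 ± 92.8 CPM (SD, n = 5) in WD, 84.2 ± 3.51 (n = 3) with auranofin and 71.9 ± 16.0 (n = 3) with atorvastatin. Here the median for auranofin was -0.29 with the index as covariate, that for atorvastatin -0.14 and that for the combination -0.11. Among the 14 thioredoxin-fold relatives, 12 had negative values in each of the 3 comparisons with WD, with medians of -0.19, -0.33 and -0.19. Txndc17, a small cytosolic thioredoxin-like protein, had -1.12 for atorvastatin (adjusted p = 0.340), and Nxn, nucleoredoxin, -0.50 for auranofin (adjusted p = 0.671). With the index as covariate 8 of 14 were negative for auranofin, 8 of 14 for atorvastatin and 11 of 14 for the combination, with medians of -0.0087, -0.0096 and -0.04.

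Genes of NADPH supply, which feed the reductases, had positive values in 6 of 7 for auranofin (median 0.21), 4 of 7 for atorvastatin (median 0.17) and 5 of 7 for the combination (median 0.12). Idh1, the cytosolic isocitrate dehydrogenase, had 0.41 for auranofin, with 74.6 ± 13.4 CPM (SD, n = 3) against 56.0 ± 9.44 (n = 5) in WD. With the index as covariate 6 of 7 were positive for auranofin (median 0.33), 7 of 7 for atorvastatin (median 0.14) and 6 of 7 for the combination (median 0.20). The 8 genes of glutathione synthesis and reduction, the parallel thiol system, had 3 positive and 5 negative values for auranofin (median -0.09). Gss, glutathione synthetase, had -0.54 for auranofin (unadjusted p = 0.024, adjusted p = 0.671), and Slc7a11, the cystine importer, 0.83 (unadjusted p = 0.269). Slc7a11 was low, at 0.25 to 2.34 CPM in WD (5 to 64 counts) and 0.71 to 4.68 CPM with auranofin (17 to 71 counts).

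The NRF2 axis around Txnrd1 had no common direction: 6 of 9 genes, Txnrd1 included, were positive for auranofin (median 0.11), 4 of 9 for atorvastatin (median -0.06) and 6 of 9 for the combination (median 0.04). Hmox1, heme oxygenase and induced by heme and by electrophiles, had 0.14 for auranofin (unadjusted p = 0.786), with 43.9 ± 9.51 CPM (SD, n = 3) in the auranofin libraries against 39.9 ± 24.2 CPM (n = 5) for WD. Gclm, a subunit of the rate-limiting enzyme of glutathione synthesis, had 0.15, and Keap1, the inhibitor of NRF2, -0.39 (adjusted p = 0.671).

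The machinery of selenocysteine insertion, on which the reductases depend, had 4 of 7 positive values for auranofin (median 0.17), and 3 of 7 with the index as covariate (median -0.01). Sephs2, which makes the selenium donor, had the smallest p of the list in the auranofin term, 0.58 (unadjusted p = 0.043, adjusted p = 0.998), with 29.6 ± 11.1 CPM (SD, n = 3) for auranofin and 20.5 ± 6.35 (n = 5) for WD. The combination libraries, which also enter that term, had 16.0 and 42.8 CPM. Sephs2 ran from 14.8 to 31.1 CPM in WD and from 12.8 to 21.5 with atorvastatin. Pstk, a kinase of the same pathway, had -0.62 for auranofin. Ribonucleotide reductase, which thioredoxin recharges for DNA synthesis, had values for auranofin of -0.32 for Rrm2, 0.14 for Rrm1 and 0.39 for Rrm2b.

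The alpha-arrestins and MondoA axis of Txnip had 3 positive and 5 negative values for auranofin (median -0.05), and Slc2a1, the glucose transporter that TXNIP restrains, had -0.30. The effectors of TXNIP and thioredoxin had 4 of 7 positive values (median 0.0052), with Trp53 at -0.46 (unadjusted p = 0.038, adjusted p = 0.671). Glucocorticoid-responsive genes, listed because Txnip responds to glucocorticoids, had positive values in 7 of 7 for auranofin (median 0.23), 4 of 7 for atorvastatin (median 0.13) and 7 of 7 for the combination (median 0.17). With the index as covariate these were 7, 5 and 6 of 7. An unadjusted p under 0.05 was found for 2 of 7 with atorvastatin and 2 of 7 with the combination, against 14.7% and 1.47% of all genes. Fkbp5, a chaperone induced by glucocorticoids, had 0.57 in the auranofin term (unadjusted p = 0.024, adjusted p = 0.998). Against WD it had 0.32 for auranofin and 0.86 for the combination. Per1, a clock gene, had 0.55 in the atorvastatin term (unadjusted p = 0.018, adjusted p = 0.546).

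**Figure D5:**
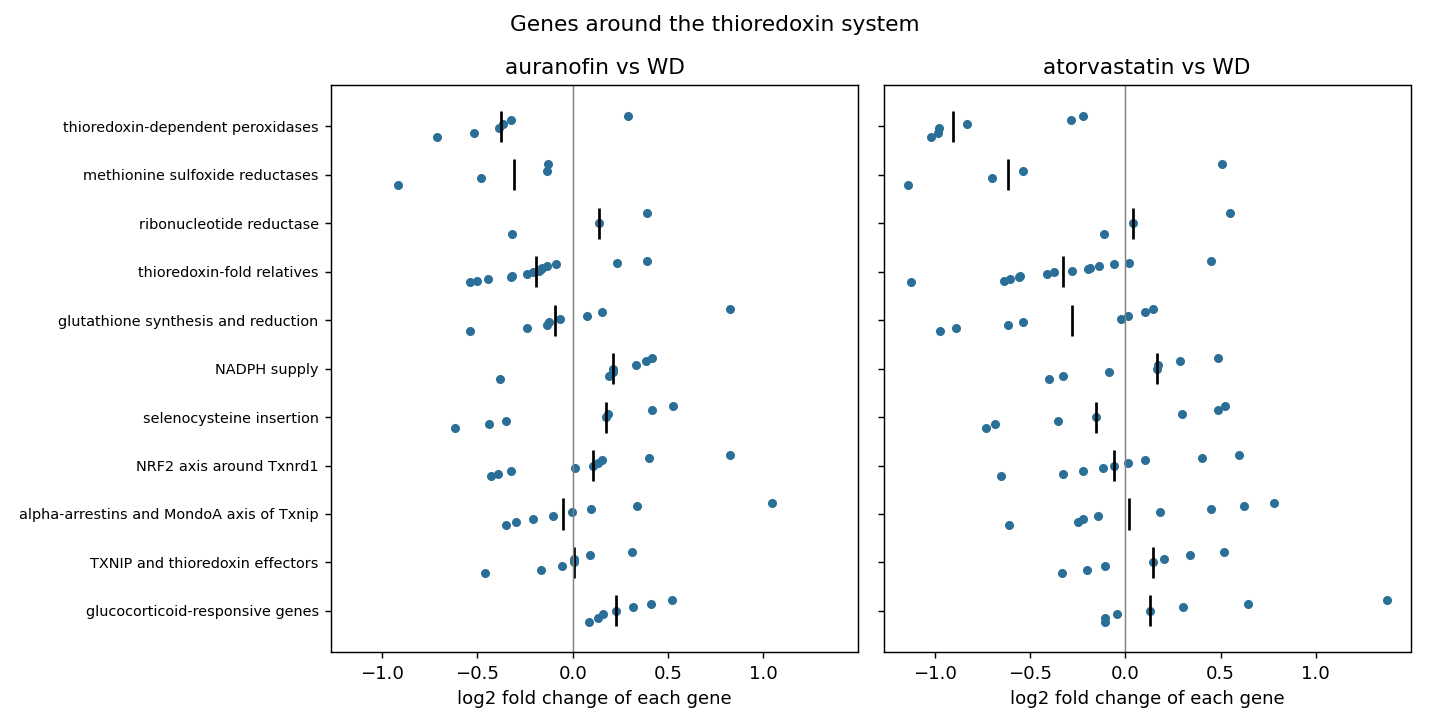
Log2 fold changes of the genes of 11 lists around the thioredoxin system for auranofin against WD (left) and atorvastatin against WD (right), fitted with edgeR; points are genes and vertical lines list medians. The list of peroxidases, which includes Srxn1, has the lowest medians, -0.38 and -0.90, and no gene passed an adjusted p of 0.05.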

How the data were processed

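The authors deposited raw counts per gene for 13 aorta libraries. Per the labels' protocols the libraries were poly-A, non-stranded and sequenced on a DNBseq platform. Per the submitters' processing notes, STAR 2.6.1d, featureCounts and Subread 1.6.3 and the build GRCm39 were used. Genes were filtered with filterByExpr, scaled with TMM and tested with the quasi-likelihood test of edgeR 4.0.16 in R 4.3.3 on all 13 libraries, two-sided, with Benjamini-Hochberg adjustment over 18055 genes. An SE is the fold change divided by the square root of F. Alternatives used DESeq2 1.42.0 and limma 3.58.1. Correlations used log2 CPM (prior count 2) and 100000 permutations. The code was tested on simulated data. Sequences, lengths, positions and overlaps came from GENCODE M21 and RefSeq on GRCm38, another build than the counts.

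The 6 genes and the lists were chosen with earlier results of these data known. From each list, up to 3 genes were named by the smallest p in the auranofin term and up to 2 in the atorvastatin term, and the 3 most similar genes per member were taken by Pearson r among genes whose mean log2 CPM reached 1, leaving out predicted genes and clones. The short-transcript index, the cartilage score, the partner genes, the ratios and rank correlation as an alternative were added after the data were seen. No pair of libraries was a duplicate. One overlap between genes is not reported here.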

Additional observations from a re-analysis of the deposited data

Results flagged for a closer look

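Txn1 in WD 2, at 357 CPM, stood far from the other 4 WD libraries, which lay between 81.9 and 160 CPM. On linear CPM the gap to the next library was 0.717 of the range of the group, just above the critical value of 0.71 for 5 libraries. This was 1 of 12 such checks in the WD group, and chance alone marks about 1 in 20. On log2 CPM, where Txn1 was 8.48 in WD 2, the check was not made. The short-transcript index was also highest in that library (1.75), and mitochondrial genes took 26.9% of its counts. Their part in the Txn1 value was not tested.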

How the results depend on the processing

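No member passed the threshold under any alternative or with any library left out. Of 378 member log2 fold changes under alternatives other than leaving out a library, 324 kept their sign, and of 468 with a library left out 414 did. The cause of the changes below was not tested. Counts of genes past the threshold, 0 in edgeR, were 13, 2 and 9 without the low-count filter for auranofin, atorvastatin and the combination against WD, and 2, 4 and 11 with DESeq2 for auranofin, the combination and the interaction. They were 1 each with the brown adipocyte score as covariate for auranofin, the combination and the auranofin term, and 1 for auranofin with the short-transcript index, which was chosen after the data were seen. With a library left out they ran from 0 to 10 for the combination and 0 to 2 for the interaction, both highest without combination 1, where the lone combination library is assumed to vary like the others. Relations past the threshold numbered 3 of 15 pairs, 0 by Spearman's rho (added after the data were seen) and 0 without the 2 farthest libraries, and 6 of 36 with library measures, 8 by rho, 7 on values minus the group mean and 1 without those 2. On values minus the group mean 2 pairs passed. Of the 12 relations added later, 5 passed, with 5 by rho, 3 on values minus the group mean and 4 without the 2 farthest libraries.

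The log2 fold changes that turned sign were these. With total counts and no further scaling, Txnrd1 was -0.097 for auranofin against WD, Txnip 0.11 for atorvastatin, Txnrd3 0.20 for the combination, -0.042 in the auranofin term and 0.14 in the atorvastatin term, Txnip 0.041 in the latter and Txnrd2 0.15 in the interaction. Without the filter, Txnrd1 was -0.0031 for auranofin, Txnrd3 0.00048 for the combination and -0.0046 in the auranofin term, and Txnrd2 0.029 in the interaction. With limma, Txnrd1 was -0.11 for auranofin, Txnip 0.10 for atorvastatin, Txnrd3 0.097 and Txn2 0.021 for the combination, and Txn1 0.071 and Txn2 0.17 in the auranofin term. With the brown adipocyte score, Txnrd2 was -0.33, -0.23 and -0.12 against WD for auranofin, atorvastatin and the combination, -0.11 and -0.044 in the 2 terms and 0.44 in the interaction. Under it Txnip was -0.20 for the combination, and Txnrd1 0.028, Txnrd3 -0.025 and Txn1 0.12 in the auranofin term. With the mitochondrial share, Txnrd2 was -0.11 for auranofin and 0.33 in the interaction, Txnrd3 0.026 for the combination and -0.0086 in the auranofin term, and Txnrd1 0.079 in that term. With the short-transcript index, Txnrd1, Txn1 and Txn2 were -0.11, 0.0063 and 0.015 for auranofin, and Txn1 0.089 for atorvastatin. Under it Txnrd3, Txn1, Txn2 and Txnip were 0.0061, 0.11, 0.11 and -0.025 for the combination, Txn1 and Txn2 0.011 and 0.055 in the auranofin term and 0.095 and 0.041 in the atorvastatin term, and Txnrd1 0.12 in the interaction. Txnip for the combination was -0.00013, -0.00015 and -0.00019 with median-of-ratios factors, the stricter filter and DESeq2, and Txnrd2 in the atorvastatin term -0.00076 and -9.1e-05 with the first and last of these.

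With a library left out, Txnrd1 ran from -0.11 to 0.12 and Txnrd2 from -0.062 to 0.34 for auranofin. For atorvastatin Txnrd2 ran from -0.14 to 0.17 and Txnip from -0.15 to 0.034. For the combination Txnip ran from -0.15 to 0.15, Txnrd3 from -0.19 to 0.15 and Txnrd2 from -0.22 to 0.54. In the auranofin term Txnrd1 ran from -0.12 to 0.018, Txnrd3 from -0.098 to 0.097, Txn1 from -0.31 to 0.16 and Txn2 from -0.15 to 0.11. In the atorvastatin term Txnrd2 ran from -0.10 to 0.11, and in the interaction Txnrd2 from -0.45 to 0.35 and Txnrd1 from -0.35 to 0.057.

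Deviations of same-numbered libraries from their group means correlated between -0.39 and 0.44. Differently numbered libraries were not compared, so these values cannot settle whether the replicate numbers pair the libraries. With the replicate block 0 genes and 0 members passed in each comparison. Under the replicate block Txnrd1 was -0.049 for auranofin, Txnip 0.072 for atorvastatin, and Txnrd3 0.20 for the combination and 0.020 in the atorvastatin term. Every member had 179 or more counts in every library, and 2 to 5 libraries a group limit the precision.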
